A study of Mus musculus with 4 samples.

Results

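The genes described here are 42 genes of the endoplasmic reticulum (ER) stress response, of the transcription factor ATF4 and of transfer RNA charging. They were chosen by name, as the array probes whose gene name matched one of the 42, and made up 42 of the 37008 genes and transcripts on the array. The 42 genes had 78 probes, 20 of them with 1 probe each and 22 with several, and 41 were well above background on all 4 arrays. Messenger RNA was measured on 4 one-colour arrays in cells of the mouse macrophage line RAW264.7. They were grouped as Mfp2-/- cells with lipopolysaccharide (LPS), Mfp2-/- cells without it, wild-type cells with LPS and wild-type cells without it, with 1 array each. Hsd17b4 encodes Mfp2, an enzyme of fatty acid breakdown in peroxisomes, and the Mfp2-/- cells are called knockout here. LPS is a component of the bacterial cell wall that activates macrophages. The labels do not give the dose and time of LPS, the way the knockout was made or whether it was 1 clone.

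Levels are log2 signal relative to the 75th percentile of the array, and differences are differences of these levels. A difference of 1 is 2-fold, and genes at 2-fold or more are called higher or lower. Each group has 1 array, so differences between 2 arrays lack replication and carry no p-value. From replicate spots of a probe, their technical SD was between 0.0760 and 0.129, which leaves out the spread between cultures. Levels of different genes were not compared, since probes differ in brightness. The p-values quoted come from a limma fit to all 4 arrays, with genotype and LPS as additive terms and Benjamini-Hochberg adjustment over 17365 genes. Each gene has 1 residual degree of freedom in it, and unequal LPS responses of the genotypes count as noise.

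Secreted and membrane proteins fold in the ER, and unfolded protein there activates the sensors PERK (Eif2ak3), IRE1 (Ern1) and ATF6. IRE1 splices Xbp1 messenger RNA, and XBP1 and ATF6 raise the transcription of chaperones and of the machinery that degrades misfolded protein. PERK phosphorylates the translation factor eIF2, which lowers protein synthesis in general while translation of Atf4 increases. Other kinases that sense amino acid shortage, viral RNA or haem shortage phosphorylate the same factor, so this branch is called the integrated stress response. ATF4 switches on genes of amino acid uptake and synthesis, many cytosolic tRNA synthetases, and the regulators Ddit3 (CHOP), Trib3, Chac1 and Atf3. In macrophages LPS is known to engage parts of this network.

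Promoters of the members are shown because the 2 branches are known to act through different short motifs, and the arrays cover members that hold each. The search used windows of 250 bases before to 50 after the gene start from RefSeq (GRCm38.p6), which held a window for 37 of the 42 members, and counted matches on both strands. The motif TGATGNAA, the core of the element bound by ATF4 with C/EBP proteins, where N is any base, was found in 10 of these 37 members, against 3.97% of all 32851 windows. The 10 members were Trib3, Chac1, Atf3, Asns, Herpud1, Aars, Gars, Iars, Tars and Yars. The ER stress element, CCAAT and CCACG with 9 free bases between them, was found in 7 of 37 members, Hspa5, Hsp90b1, Dnajc3, Pdia6, Calr, Creld2 and Syvn1, against 0.119% of all windows. Its shorter variant, ATTGG and CCACG with 1 free base between them, was found in Herpud1, which also held the ATF4 motif, and in 0.0365% of all windows. The motif TGACGTGG, known from XBP1 binding, was in 0 of 37 members and 0.676% of all windows. Atf6, Cars, Lars, Nars and Wars had no window in the table. A match is a description of letters and no measurement of binding.

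The next lines give the 250 bases before the gene start, 5′ to 3′ on the strand of the gene, for members with the ATF4 motif, with the matched letters in capitals. The regions are chr2:119350992-119351241 for Chac1, chr1:191183334-191183583 on the minus strand for Atf3, chr6:7693210-7693459 on the minus strand for Asns, chr8:94386179-94386428 for Herpud1, chr8:111033592-111033841 for Aars and chr15:11399659-11399908 on the minus strand for Tars. The matches begin 193 bases before the start in Chac1, 110 in Atf3, 23 in Asns, 112 in Herpud1, 112 in Aars and 15 in Tars. In Herpud1 the second run of capitals is the variant ER stress element, 52 bases before the start.
Chac1: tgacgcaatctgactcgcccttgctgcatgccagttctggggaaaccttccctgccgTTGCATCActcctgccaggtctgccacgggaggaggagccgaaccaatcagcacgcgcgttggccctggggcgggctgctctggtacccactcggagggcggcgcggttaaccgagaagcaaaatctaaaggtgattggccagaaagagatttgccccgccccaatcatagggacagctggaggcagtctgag
Atf3: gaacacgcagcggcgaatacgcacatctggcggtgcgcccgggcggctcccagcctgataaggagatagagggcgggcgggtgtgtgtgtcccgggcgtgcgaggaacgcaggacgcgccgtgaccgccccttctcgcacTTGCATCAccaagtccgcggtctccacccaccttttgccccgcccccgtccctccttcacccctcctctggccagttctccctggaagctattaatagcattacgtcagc
Asns: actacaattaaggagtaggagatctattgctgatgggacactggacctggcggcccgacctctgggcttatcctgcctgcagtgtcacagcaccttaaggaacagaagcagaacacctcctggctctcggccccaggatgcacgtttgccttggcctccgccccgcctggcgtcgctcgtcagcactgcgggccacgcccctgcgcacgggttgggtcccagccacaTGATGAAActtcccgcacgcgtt
Herpud1: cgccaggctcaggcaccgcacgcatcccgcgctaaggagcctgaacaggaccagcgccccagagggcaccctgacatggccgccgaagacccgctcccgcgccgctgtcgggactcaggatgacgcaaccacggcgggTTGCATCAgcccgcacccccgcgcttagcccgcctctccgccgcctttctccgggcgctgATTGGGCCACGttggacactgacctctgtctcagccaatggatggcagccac
Aars: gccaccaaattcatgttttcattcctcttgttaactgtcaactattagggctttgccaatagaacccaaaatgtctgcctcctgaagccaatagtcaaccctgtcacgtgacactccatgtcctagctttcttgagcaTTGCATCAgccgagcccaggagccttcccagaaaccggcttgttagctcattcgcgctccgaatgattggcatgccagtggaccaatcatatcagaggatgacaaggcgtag
Tars: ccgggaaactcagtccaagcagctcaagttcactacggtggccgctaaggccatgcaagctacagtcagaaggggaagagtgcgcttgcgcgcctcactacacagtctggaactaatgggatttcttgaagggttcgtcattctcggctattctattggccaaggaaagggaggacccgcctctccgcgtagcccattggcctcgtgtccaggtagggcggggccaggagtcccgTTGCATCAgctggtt
In Trib3 the match lies 14 bases after the start, and 30 bases around it (chr2:152344028-152344057, minus strand) are given.
Trib3: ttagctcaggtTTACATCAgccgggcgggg

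The corresponding stretches of 4 members with the ER stress element follow, again with the matched letters in capitals. The regions are chr2:34771840-34772089 for Hspa5, chr10:86705445-86705694 on the minus strand for Hsp90b1, chr8:84846932-84847181 on the minus strand for Calr and chr19:6046326-6046575 for Syvn1. The matches begin 65 bases before the start in Hspa5, 212 in Hsp90b1, which holds another match nearer the start, 162 in Calr and 44 in Syvn1.
Hspa5: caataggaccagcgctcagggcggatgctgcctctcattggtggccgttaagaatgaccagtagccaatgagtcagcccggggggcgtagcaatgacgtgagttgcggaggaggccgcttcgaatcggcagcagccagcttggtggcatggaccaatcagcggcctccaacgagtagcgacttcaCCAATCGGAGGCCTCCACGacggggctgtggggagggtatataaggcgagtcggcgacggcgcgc
Hsp90b1: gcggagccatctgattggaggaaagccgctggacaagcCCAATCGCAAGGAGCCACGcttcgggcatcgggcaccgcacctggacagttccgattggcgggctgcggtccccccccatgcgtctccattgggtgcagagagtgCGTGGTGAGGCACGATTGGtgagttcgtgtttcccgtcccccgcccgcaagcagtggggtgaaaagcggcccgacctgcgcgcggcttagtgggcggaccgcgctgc
Calr: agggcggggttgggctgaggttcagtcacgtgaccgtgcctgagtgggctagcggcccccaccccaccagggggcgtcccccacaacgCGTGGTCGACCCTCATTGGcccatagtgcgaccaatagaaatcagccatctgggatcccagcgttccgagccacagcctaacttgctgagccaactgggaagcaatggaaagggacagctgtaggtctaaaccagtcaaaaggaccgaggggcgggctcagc
Syvn1: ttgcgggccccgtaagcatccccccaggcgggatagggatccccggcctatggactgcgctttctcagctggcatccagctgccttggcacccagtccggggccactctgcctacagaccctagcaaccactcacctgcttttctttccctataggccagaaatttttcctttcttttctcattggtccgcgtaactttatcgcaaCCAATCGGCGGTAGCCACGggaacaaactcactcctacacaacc

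The 10 members with the ATF4 motif had LPS responses between 0.79 and 4.92 in knockout cells and between 0.41 and 3.89 in wild-type cells (medians 1.53 in knockout and 1.15 in wild type). The 7 members with the ER stress element, Pdia6 not being measured in knockout cells with LPS, had responses between -0.75 and 1.59 in knockout cells and between -0.65 and 1.24 in wild-type cells (medians 0.54 in knockout and 0.41 in wild type). These values are set side by side without a test.

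The arrays as a whole were alike in signal. The share of spots well above background was between 47.4% and 49.7%, 0 were saturated, and the 4 arrays lay on 1 slide with 1 scan time, each at its own position, so that position and group cannot be told apart. Hsd17b4 had a level of 1.39 in knockout with LPS, 2.17 in untreated knockout, 2.60 in wild type with LPS and 3.06 in untreated wild type, which put knockout below wild type by -1.21 with LPS and -0.89 without, still above background. All 10 macrophage markers (Ptprc, Cd68, Adgre1, Itgam, Csf1r, Lyz2, Cd14, Fcgr1, Mpeg1 and Spi1) were above background on every array. Of the 15 markers of T cells, B cells, epithelium, fibroblasts and endothelium, Cd3e alone was above background on all 4 arrays.

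The question of the first comparisons was how the stress genes responded to LPS in each genotype. In knockout cells 20 of 41 measured members were higher with LPS and 0 lower, where 11.1% of all genes compared were higher and 12.4% lower. In wild-type cells 13 of 42 were higher and 0 lower, where 9.97% of all genes were higher and 8.39% lower. The 13 members higher in wild type were all among the 20 higher in knockout. The same overlap is not given over all genes, whose 2 responses correlated with a Pearson r of 0.886. The other 7 were Psph, Mthfd2, Hspa5, Ero1l, Aars, Cars and Tars. By their main probes their wild-type responses lay below 2-fold, from 0.54 for Tars to 0.97 for Psph. The second Mthfd2 probe gave 1.002 in wild type, just past 2-fold. Responses above 0 were found for 37 of 41 members in knockout and 33 of 42 in wild type, against 52.4% of all genes in knockout and 52.6% in wild type. The median response was 0.97 in knockout and 0.63 in wild type, while over the 15516 genes above background on all arrays it was 0.037 in knockout and 0.036 in wild type. In the additive fit with limma 19 of 41 members passed for LPS at an adjusted p under 0.05, 18 of them higher and 1, Dnajc3, lower, where 11.2% of all genes tested rose and 10.6% fell. A further 25 probes of 19 members were above background on all 4 arrays, and 20 of them gave a response of the same sign as the main probe in knockout and 20 in wild type. Probes of opposite sign belonged to Syvn1, Edem1 and Shmt2 in both genotypes, to Xbp1 in knockout, and to Eif2ak3 and Yars in wild type. The Syvn1 probe among them is mapped to the opposite strand from the main probe.

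**Figure D1:**
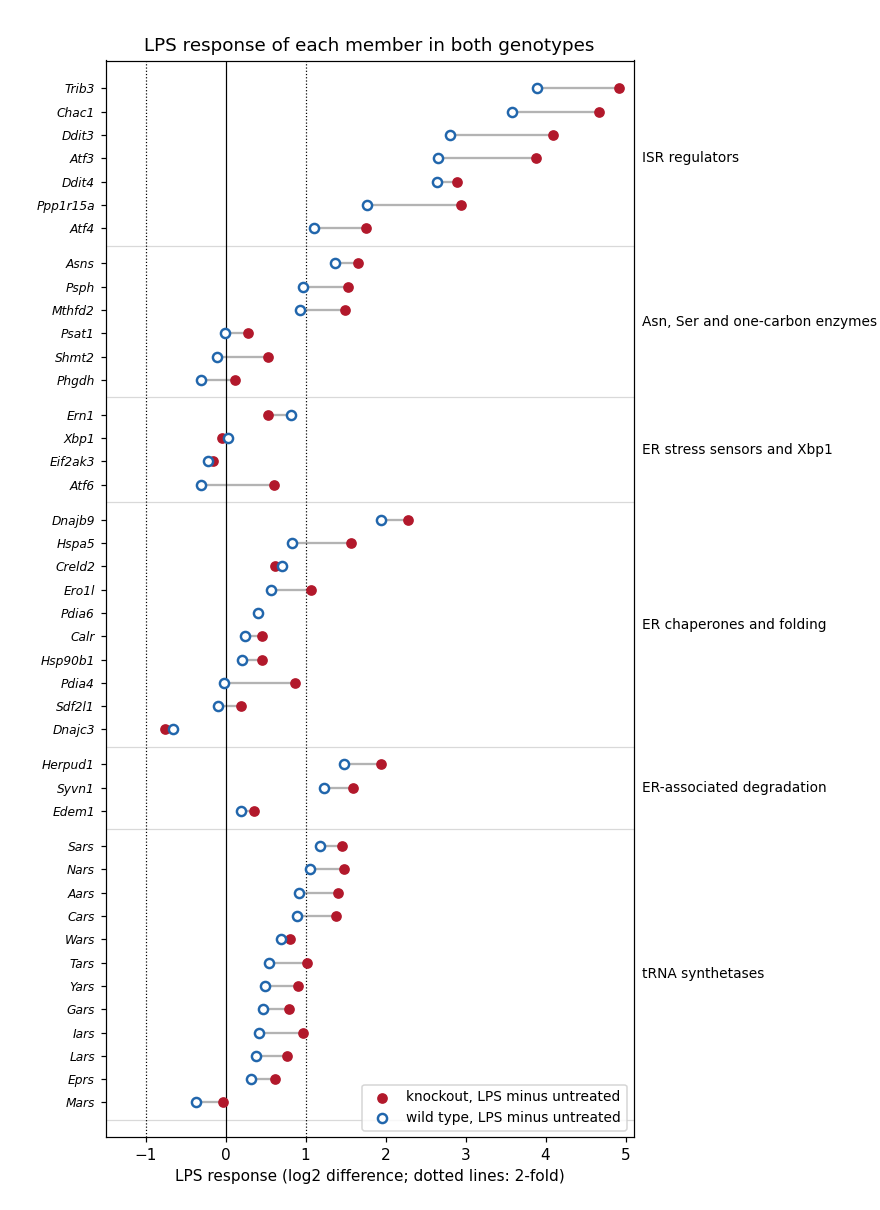
Log2 difference between LPS and untreated cells for each member, with filled points for knockout cells and open points for wild-type cells, and dotted lines at 2-fold. Trib3, Chac1, Ddit3 and Atf3 lie furthest to the right, from 3.88 to 4.92 in knockout and, with Ddit4 at 2.65, from 2.65 to 3.89 in wild type, and Pdia6 has no knockout point.

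The 7 regulators of the integrated stress response were all higher with LPS in both genotypes, with a median response of 3.88 in knockout and 2.66 in wild type. Trib3, a pseudokinase that binds the kinase AKT and restrains ATF4 and CHOP, had a level of 4.92 in knockout with LPS, -0.01 in untreated knockout, 3.52 in wild type with LPS and -0.37 in untreated wild type. That is a 30.3-fold response in knockout and a 14.8-fold response in wild type. Chac1, an enzyme that breaks down glutathione, had levels of 5.08 in knockout with LPS, 0.41 in untreated knockout, 4.02 in wild type with LPS and 0.44 in untreated wild type, or 25.4-fold in knockout and 12-fold in wild type. The untreated levels of Chac1 differed by less than the technical SD, so the gap between the genotypes appeared on the LPS arrays alone.

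Ddit3, which encodes the transcription factor CHOP, had levels of 2.78 in knockout with LPS, -1.31 in untreated knockout, 1.57 in wild type with LPS and -1.23 in untreated wild type, a response of 17.1-fold in knockout and 6.97-fold in wild type. The probe behind these values (chr10:126732518-126732821 in mm9) reads 60 bases that span 304 bases of the genome, so it crosses an exon junction.
Ddit3: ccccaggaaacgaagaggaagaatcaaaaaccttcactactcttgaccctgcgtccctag
A second Ddit3 probe, at chr10:126731579-126731638 in mm9, gave smaller responses of 1.09 in knockout and 0.67 in wild type. Both probes were higher with LPS in both genotypes, and they disagreed in the size of the response.

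Atf3, a stress-induced transcription factor of the same family, had levels of 4.11 in knockout with LPS, 0.24 in untreated knockout, 3.56 in wild type with LPS and 0.90 in untreated wild type, or 14.7-fold in knockout and 6.31-fold in wild type. Its level in untreated knockout was 0.66 below wild type, a gap larger than its 0.56 above wild type with LPS, so both arrays of a pair enter its larger response in knockout. Ppp1r15a, which encodes GADD34, the subunit that directs a phosphatase to eIF2 and ends the response, had levels of 4.19 in knockout with LPS, 1.24 in untreated knockout, 3.19 in wild type with LPS and 1.42 in untreated wild type, or 7.71-fold in knockout and 3.41-fold in wild type. Ddit4 encodes REDD1, an inhibitor of the growth kinase complex mTORC1. Its levels were 4.73 in knockout with LPS, 1.84 in untreated knockout, 3.26 in wild type with LPS and 0.62 in untreated wild type, or 7.43-fold in knockout and 6.27-fold in wild type. Ddit4 was the member whose level was already higher in untreated knockout, and its responses differed little.

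By the main probes Atf4 itself responded less than these targets at the transcript level. The second Ddit3 probe, at 1.09 in knockout and 0.67 in wild type, lay below both Atf4 probes. Atf4 levels were 8.39 in knockout with LPS, 6.64 in untreated knockout, 7.77 in wild type with LPS and 6.66 in untreated wild type. That is a response of 3.36-fold in knockout and 2.15-fold in wild type. The other Atf4 probe gave log2 responses of 2.21 in knockout and 1.23 in wild type, against 1.75 in knockout and 1.1 in wild type. The arrays do not read translation of Atf4, through which the protein is mainly regulated. In the additive limma fit all 7 regulators rose with LPS, from Trib3 at 4.41 ± 0.32 (SE, adjusted p = 0.0267) to Atf4 at 1.43 ± 0.22 (adjusted p = 0.0423).

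**Figure D2:**
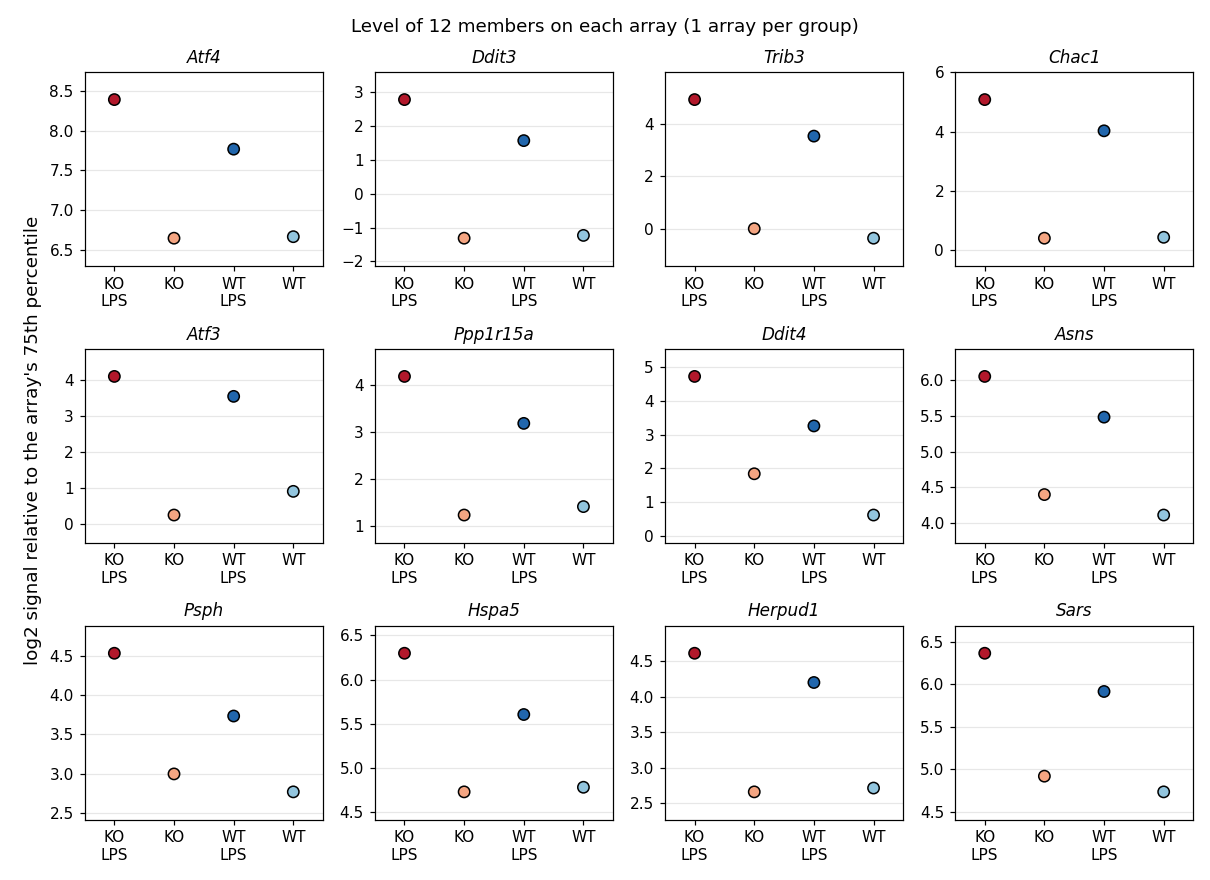
Level of 12 members on each array, as log2 signal relative to the array's 75th percentile, 1 point per array, with a separate vertical scale for each gene. In all 12 panels the order of the LPS arrays is the same, with knockout above wild type, while among the untreated arrays Ddit4 shows the widest gap (1.84 in knockout, 0.62 in wild type).

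The enzymes that make asparagine, serine and folate-bound carbon units split into a responding and a flat set. Asns, which makes asparagine and is a textbook ATF4 target, had levels of 6.05 in knockout with LPS, 4.40 in untreated knockout, 5.48 in wild type with LPS and 4.11 in untreated wild type, a response of 3.14-fold in knockout and 2.58-fold in wild type. Psph, which removes phosphate in the last step of serine synthesis, had levels of 4.53 in knockout with LPS, 3.0 in untreated knockout, 3.73 in wild type with LPS and 2.77 in untreated wild type. Its response was 2.90-fold in knockout and 1.95-fold in wild type. Mthfd2, a mitochondrial enzyme of folate metabolism, had levels of 3.66 in knockout with LPS, 2.17 in untreated knockout, 3.13 in wild type with LPS and 2.2 in untreated wild type, or 2.82-fold in knockout and 1.91-fold in wild type. A second Mthfd2 probe gave log2 responses of 1.74 in knockout and 1.002 in wild type, so its place below 2-fold in wild type depended on the probe. Asns, Psph and Mthfd2 rose with LPS in the additive limma fit, with Mthfd2 at 1.21 ± 0.20 (SE, adjusted p = 0.0455).

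Phgdh and Psat1, which catalyse the earlier steps of serine synthesis, and Shmt2, which splits serine in mitochondria, stayed between 0.12 and 0.53 in the knockout response and between -0.31 and -0.01 in the wild-type response. Phgdh differed by 0.12 in knockout and -0.31 in wild type, and Psat1 by 0.27 in knockout and -0.01 in wild type. None of these 3 passed the limma fit (adjusted p between 0.499 and 0.680). The steps of one pathway thus had unequal responses, with Psph apart from Phgdh and Psat1.

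By their main probes the sensors of ER stress did not reach 2-fold in any of the 4 comparisons of arrays, and for Ern1 this depended on the probe. Eif2ak3 had levels of -0.10 in knockout with LPS, 0.06 in untreated knockout, -0.41 in wild type with LPS and -0.18 in untreated wild type. Its second probe gave responses of -0.73 in knockout and 0.05 in wild type, so that its probes disagreed in wild type. Ern1 had levels of 0.21 in knockout with LPS, -0.32 in untreated knockout, -0.10 in wild type with LPS and -0.92 in untreated wild type. Its response was 0.53 in knockout and 0.81 in wild type, while a second probe above background on all arrays gave 1.53 in knockout and 1.41 in wild type, both past 2-fold. Ern1, Xbp1 and Creld2 were the members above 0 in wild type whose main probe had a smaller response in knockout. For Ern1 and Xbp1 this turned with the probe, the difference of the responses being 0.12 by the second Ern1 probe, and 0.29 and 0.26 by the other Xbp1 probes. Atf6 had levels of 2.55 in knockout with LPS, 1.94 in untreated knockout, 2.08 in wild type with LPS and 2.39 in untreated wild type, and so differed by 0.61 in knockout and -0.31 in wild type.

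Xbp1, whose messenger RNA is the substrate of IRE1, was flat, with levels of 5.67 in knockout with LPS, 5.72 in untreated knockout, 5.83 in wild type with LPS and 5.80 in untreated wild type. Its other 2 probes gave responses of 0.32 and 0.38 in knockout and 0.03 and 0.13 in wild type. The array files do not say whether any of the 3 probes tells spliced from unspliced messenger RNA.

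ER chaperones and folding enzymes responded unevenly, with 3 of 9 measured members higher in knockout, where 11.1% of all genes were, and 1 of 10 in wild type, near the 9.97% of all genes (medians 0.62 in knockout and 0.33 in wild type). Dnajb9, an ER co-chaperone known as a target of XBP1, had levels of 2.12 in knockout with LPS, -0.16 in untreated knockout, 1.55 in wild type with LPS and -0.39 in untreated wild type, or 4.85-fold in knockout and 3.84-fold in wild type. It was the chaperone member that passed the additive fit as higher (2.11 ± 0.15, SE, limma adjusted p = 0.0267). Hspa5 encodes BiP, the main ER chaperone of the HSP70 family. Its levels were 6.30 in knockout with LPS, 4.73 in untreated knockout, 5.60 in wild type with LPS and 4.78 in untreated wild type, a response of 2.97-fold in knockout and 1.77-fold in wild type, and it did not pass the limma fit (adjusted p = 0.0605). A second probe of Hspa5 gave 1.58 in knockout and 0.80 in wild type, and a further probe, without a value in wild type with LPS, gave 1.01 in knockout.

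Ero1l (current symbol Ero1a), the oxidase that drives disulfide formation, had levels of 4.24 in knockout with LPS, 3.17 in untreated knockout, 3.65 in wild type with LPS and 3.08 in untreated wild type, or 2.10-fold in knockout and 1.48-fold in wild type. The abundant lectin chaperone Calr (0.46 in knockout, 0.25 in wild type), the HSP90 chaperone of the ER Hsp90b1 (0.45 in knockout, 0.21 in wild type) and Sdf2l1 (0.20 in knockout, -0.09 in wild type) differed by less than 1.5-fold. Pdia4, a protein disulfide isomerase, differed by 0.87 in knockout and -0.01 in wild type. Creld2, another ER stress gene, differed by 0.62 in knockout and 0.70 in wild type. Dnajc3, the co-chaperone p58IPK that inhibits PERK, went the other way, at -0.75 in knockout and -0.65 in wild type, and fell in the additive fit (-0.70 ± 0.12, SE, limma adjusted p = 0.0486).

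Pdia6, another disulfide isomerase, has 1 probe with 1 spot, and that spot was marked as non-uniform on the array of knockout with LPS, so its value there was left out. Its levels were 6.70 in untreated knockout, 6.81 in wild type with LPS and 6.40 in untreated wild type. On the array left out the pixels of the spot had a coefficient of variation of 77.7%, against 11.3% to 13.2% on the other 3, and a processed signal of 2151, against 45542 to 58975. Keeping the spot would put Pdia6 lower by more than 2-fold in each comparison that uses this array, and no such value is reported here as a difference.

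Of the 3 members of ER-associated degradation, 2 were higher with LPS in both genotypes, 1 of them by its main probe alone. Over all genes 11.1% were higher in knockout and 9.97% in wild type. Herpud1, a membrane protein of the degradation complex, had levels of 4.61 in knockout with LPS, 2.66 in untreated knockout, 4.20 in wild type with LPS and 2.72 in untreated wild type, or 3.85-fold in knockout and 2.79-fold in wild type. Syvn1 encodes HRD1, the ubiquitin ligase of that complex. Its levels were 5.95 in knockout with LPS, 4.36 in untreated knockout, 5.56 in wild type with LPS and 4.32 in untreated wild type, or 3.01-fold in knockout and 2.36-fold in wild type. Both rose in the additive limma fit (adjusted p = 0.0311 and 0.0321), and Edem1, which picks misfolded glycoproteins for degradation, differed by 0.35 in knockout and 0.19 in wild type. Second probes of 2 of these genes, above background on all arrays, went the opposite way. For Syvn1 the second probe gave -0.75 in knockout and -0.40 in wild type, at levels between -2.91 and -2.16. That probe is mapped to the minus strand and the main probe to the plus strand, so whether it reads Syvn1 messenger RNA is not known. With the mean of both probes Syvn1 was no longer past 2-fold in either genotype. For Edem1 the second probe gave -0.31 in knockout and -0.49 in wild type, so no direction is given for Edem1.

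The 12 cytosolic tRNA synthetases, enzymes that load amino acids onto their tRNAs, had responses between -0.03 and 1.49 in knockout and between -0.37 and 1.18 in wild type. In knockout cells 11 of 12 lay above 0 with LPS and 5 were higher by 2-fold (median 0.94), against 52.4% above 0 and 11.1% higher over all genes. In wild-type cells 11 of 12 lay above 0 and 2 were higher (median 0.52), against 52.6% and 9.97% over all genes. Sars, the serine enzyme, had levels of 6.37 in knockout with LPS, 4.92 in untreated knockout, 5.92 in wild type with LPS and 4.73 in untreated wild type, or 2.73-fold in knockout and 2.27-fold in wild type. Nars, the asparagine enzyme, had 4.31 in knockout with LPS, 2.83 in untreated knockout, 3.72 in wild type with LPS and 2.67 in untreated wild type, or 2.80-fold in knockout and 2.07-fold in wild type. These 2 passed 2-fold in both genotypes.

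Aars, the alanine enzyme, had levels of 5.70 in knockout with LPS, 4.29 in untreated knockout, 5.09 in wild type with LPS and 4.17 in untreated wild type, or 2.65-fold in knockout and 1.90-fold in wild type. Cars, for cysteine, had 5.32 in knockout with LPS, 3.94 in untreated knockout, 4.64 in wild type with LPS and 3.74 in untreated wild type, or 2.60-fold in knockout and 1.86-fold in wild type. Tars, for threonine, had 5.04 in knockout with LPS, 4.02 in untreated knockout, 4.55 in wild type with LPS and 4.01 in untreated wild type, or 2.03-fold in knockout and 1.46-fold in wild type. Aars, Cars and Tars passed 2-fold in knockout and lay between 1.46-fold and 1.90-fold in wild type.

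By their main probes Iars, Yars, Wars, Gars, Lars and Eprs differed by 0.62 to 0.97 in knockout and by 0.32 to 0.69 in wild type. A second Wars probe gave 1.18 in knockout, past 2-fold, and 0.88 in wild type. Mars (current symbol Mars1), the methionine enzyme, stood apart with -0.03 in knockout and -0.37 in wild type, and its levels were 2.70 in knockout with LPS, 2.73 in untreated knockout, 2.36 in wild type with LPS and 2.73 in untreated wild type. In the additive limma fit Aars, Cars, Nars, Sars and Wars rose, from 0.75 ± 0.12 for Wars to 1.32 ± 0.14 for Sars (SE, adjusted p between 0.0313 and 0.0453). The other 7 did not pass (adjusted p between 0.0721 and 0.373).

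The LPS response was larger in knockout than in wild type for most members. The difference of the responses was above 0 in 37 of 41 members with a median of 0.41, while 49.2% of all 15516 genes were above 0 with a median of -0.007. Members share their arrays, so these are not independent counts. The difference reached 2-fold in 5 of 41, Ddit3 (1.29), Atf3 (1.22), Ppp1r15a (1.18), Chac1 (1.08) and Trib3 (1.03), and was lower by 2-fold in 0, where 1.64% of all genes were higher and 2.98% lower. The second Ddit3 probe gave 0.42, and Ddit3 was under 2-fold with the mean of its probes. The second Dnajb9 probe gave 1.61 where its main probe gave 0.34. Of 25 further probes above background on all 4 arrays, 19 gave a difference of the same sign as the main probe. Second probes of Shmt2 (-1.08), Eif2ak3 (-0.78) and Syvn1 (-0.35) fell below 0, where the main probes lay above it. Trib3 was under 2-fold with quantile normalization, with normexp and in the authors' processed values. All 13 members higher by 2-fold in wild type had a larger response in knockout, and among all genes higher by 2-fold in wild type 51.8% of 1302 did. Of the 32 members measured on all arrays and above 0 in wild type, 29 had a larger response in knockout, against 54% of 8198 genes. With 1 array per group the difference of the responses could not be tested.

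**Figure D3:**
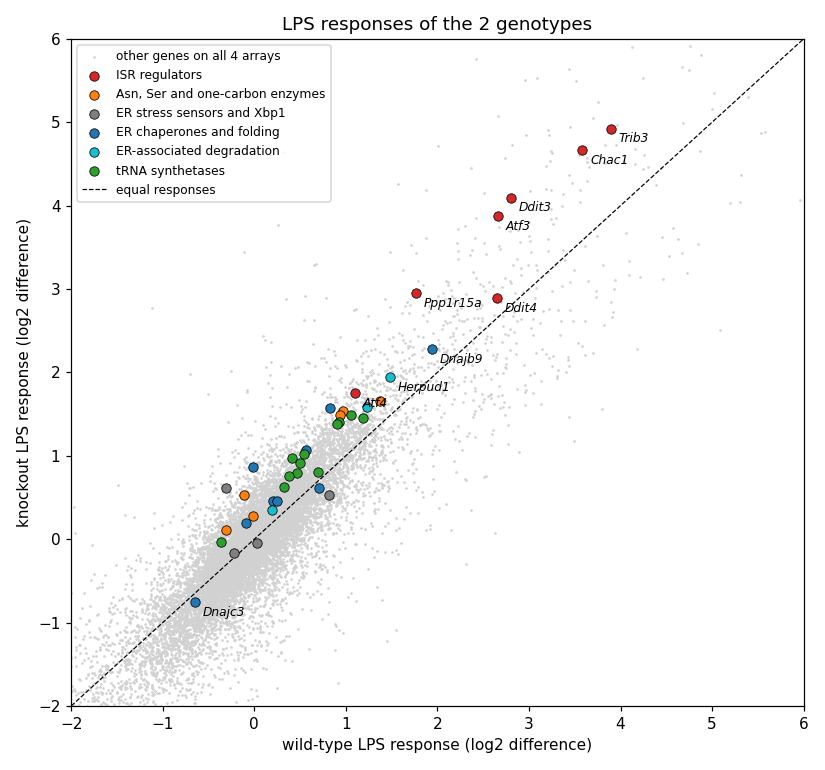
LPS response of each gene in knockout cells (vertical) against wild-type cells (horizontal) as log2 differences, with members coloured by group, all other genes above background on all 4 arrays in grey and a dashed line of equal responses; genes beyond -2 or 6 are not drawn. Of the 41 members, 37 lie above the dashed line, and 5 regulators of the stress response lie above it by more than 1.

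Among groups of members the median difference of the responses was 1.08 for the 7 regulators, 0.49 for the asparagine, serine and folate enzymes, 0.40 for the synthetases, 0.35 for ER-associated degradation, 0.29 for the chaperones and -0.01 for the sensors with Xbp1. By their main probes all 12 synthetases and all 6 amino acid and folate enzymes lay above 0, from 0.10 to 0.64. The second Shmt2 probe gave -1.08, past 2-fold in the opposite direction. By their main probes the single differences of the synthetases, from 0.10 for Wars to 0.55 for Iars, were each under 1.5-fold, set against a technical SD of 0.150. Other probes above background on all 4 arrays passed 1.5-fold for Cars (0.80 and 0.72), Eprs (0.65) and Yars (0.64). The remaining such probes, of Eprs, Lars, Wars and Yars, lay from 0.30 to 0.48. Across the 41 members the 2 responses, which share no array, correlated with a Pearson r of 0.972 (Spearman rho 0.943), against 0.886 (rho 0.861) across all 15516 genes; this describes genes, which are not independent replicates.

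The next comparisons set knockout against wild type within each treatment; they use the same 4 arrays as the responses above and add no independent sample. With LPS, 4 of 41 members were higher in knockout and 0 lower, where 1.68% of all genes were higher and 4.64% lower. The 4 were Ddit4 (1.47), Trib3 (1.39), Ddit3 (1.21) and Chac1 (1.05), and Ppp1r15a lay just below 2-fold (0.999). The second Ddit3 probe gave 0.26, and Ddit3 was under 2-fold with the mean of its probes, as was Chac1 with quantile normalization and in the authors' processed values. Above 0 were 39 of 41, with a median of 0.53, against 52.4% of all genes and a median of 0.018, and the exceptions were Xbp1 (-0.16) and Creld2 (-0.04). By their main probes Pdia4 (0.88), Psph (0.80), Shmt2 (0.72) and Hspa5 (0.70) led the members under 2-fold outside the regulators. Of 25 further probes above background on all 4 arrays, 21 had the sign of the main probe. The second Shmt2 probe gave -0.58, in the opposite direction. A second Asns probe gave 1.01, past 2-fold, and other Cars probes gave 0.85 and 0.79.

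Without LPS, the members differed little between genotypes. Higher in untreated knockout was 1 of 42, Ddit4 (1.23, or 2.34-fold), and 0 were lower, where 3.01% of all genes were higher and 4.04% lower. Above 0 were 30 of 42, against 54.7% of all genes, and the median was 0.09, against 0.026 over the 15516 genes. The other members lay between -0.66 for Atf3 and 0.60 for Ern1, and all 12 synthetases lay between -0.17 and 0.19. The additive limma fit takes genotype over all 4 arrays, with and without LPS, and so does not test untreated cells apart. In it 0 of 41 members and 0 of 17365 genes passed for genotype, and 2 of 41 had an unadjusted p under 0.05.

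Other genes of these pathways, which are not among the 42, were taken from lists drawn up with earlier results of these data known. Of 24 measured further targets of ATF4 and CHOP, 19 were higher with LPS in knockout and 12 in wild type, and 0 were lower in either. Their medians were 1.51 in knockout and 1.1 in wild type. Over all genes 11.1% were higher and 12.4% lower in knockout, and 9.97% were higher and 8.39% lower in wild type. Cth, which makes cysteine from cystathionine, had a level of 2.72 in knockout with LPS, -3.77 in untreated knockout, 1.89 in wild type with LPS and -2.34 in untreated wild type, or 89.9-fold in knockout and 18.7-fold in wild type. Slc7a11, the cystine importer, differed by 4.29 in knockout and 3.63 in wild type, and Nupr1, a stress-induced nuclear protein, by 2.89 in knockout and 2.18 in wild type. The difference of the responses was above 0 in all 23 measured on the 4 arrays (median 0.56), against 49.2% of all genes. It reached 2-fold in Cth (2.26), Sesn2 (1.1) and Tnfrsf10b (1.01), and 0 were lower by 2-fold. Over all genes 1.64% were higher and 2.98% lower in this difference. For Cth the larger part came from the untreated arrays, where knockout against wild type was -1.42, while with LPS it was 0.84. Tnfrsf10b was lower in knockout on both pairs of arrays. Sesn2 differed between genotypes by -0.03 without LPS and by 1.07 with it. In untreated knockout Cth (-3.77) and Tnfrsf10b (-4.03) had low signals, though above background.

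Some of these further targets differed between genotypes with and without LPS. Stc2, a secreted stress protein, was higher in knockout by 2.46 with LPS and by 2.36 without, and Tnfrsf10b, a death receptor, was lower by 2.18 with LPS and by 3.19 without (-2.18 and -3.19 on the log2 scale). Sesn2 (1.07), Gdf15 (1.57), Aldh1l2 (1.2) and Bbc3 (1.09) were also higher in knockout with LPS. These 4 and Stc2 were named after their values were seen. Of 24 targets measured with LPS, 5 were higher in knockout and 1 lower, where 1.68% of all genes were higher and 4.64% lower. Without LPS 1 of 23 was higher and 2 were lower, where 3.01% of all genes were higher and 4.04% lower. Gdf15 was below background without LPS in both genotypes.

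In the neighbouring lists the shares of genes at 2-fold were nearer those of all genes, 11.1% in knockout and 9.97% in wild type. Of 22 other ER chaperone, translocation and degradation genes 4 were higher with LPS in knockout (Selenos, Sec24d, Derl1 and Manf) and 2 in wild type (Selenos and Sec24d), with medians 0.60 in knockout and 0.42 in wild type. Of 12 genes for other eIF2 kinases, eIF2 and its exchange factor 0 were higher in knockout and 1 in wild type, Eif2ak2 at 1.53, which encodes the interferon-induced kinase PKR and differed by 0.96 in knockout (medians 0.28 in knockout and 0.20 in wild type). Of 11 genes for the other cytosolic synthetases and their complex, 2 were higher in knockout, Rars (1.17) and Eef1e1 (1.11), and 0 in wild type, with medians 0.40 in knockout and 0.32 in wild type.

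The mitochondrial synthetases lay mostly below 0, unlike the cytosolic ones. Of 17 genes, 15 lay below 0 with LPS in knockout and 16 in wild type, with medians -0.47 in knockout and -0.42 in wild type. Genes lower by 2-fold included Vars2, for valine, at -1.73 in knockout and -1.42 in wild type, and Aars2 (-1.60) and Cars2 (-1.17) in knockout. Higher by 2-fold were 0 in either genotype, and the median difference of the responses was -0.05, against 0.40 for the 12 cytosolic members and 0.15 for the 11 other cytosolic genes. For the other ER genes and for the eIF2 genes it was 0.09 each.

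**Figure D4:**
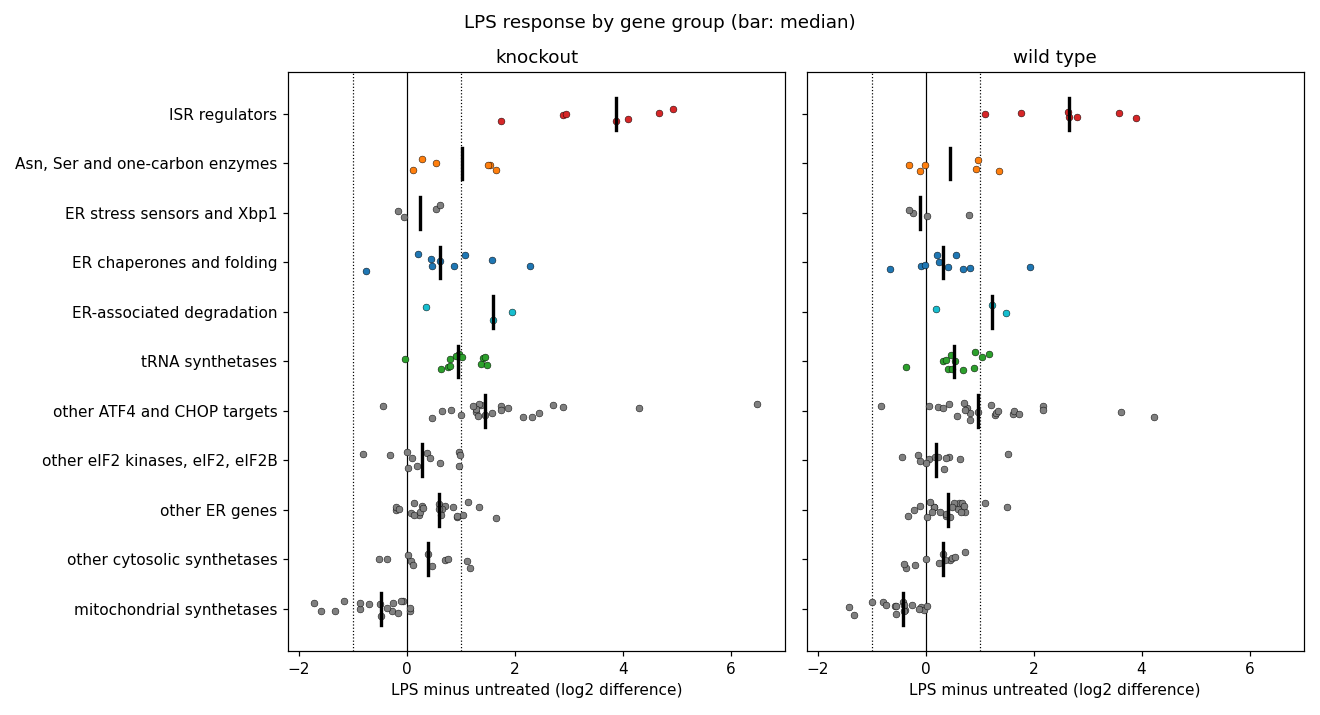
LPS response (log2 difference, LPS minus untreated) of each gene by group, for knockout on the left and wild type on the right, with a bar at each median and dotted lines at 2-fold; genes of the other lists are drawn where they were above background on all 4 arrays. The regulators of the integrated stress response have the highest median in both panels (3.88 in knockout, 2.66 in wild type), and the mitochondrial synthetases are the group with a median clearly below 0 in both (-0.47 in knockout, -0.42 in wild type).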

How the data were processed

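RNA of 4 samples of RAW264.7 cells was hybridised with 1 dye, Cy3, per the labels. Deposited scanner files give each spot's linear intensity. Their headers name Feature Extraction 10.7.1.1 as the software, and the submitters' processing notes name 9.5.1.1. Flags of 0 or 1 (unit other) mark spots well above background or outliers, per the file headers. The deposited series table also holds intensity, and it matched quantile-normalized processed signals to 0.01 log2 for 56544 to 56578 of 56605 probes. It was used as an alternative.

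Processed signals were put on the log2 scale and the array's 75th percentile over non-control spots was subtracted (463 to 567 before scaling). Outlier spots were left out and spots of a probe averaged. Each gene had 1 probe, preferring a value on all 4 arrays, then a signal above background, then the highest mean. Genes above background on 1 of 2 arrays entered with a bound from the lowest signal above background, written as "at least". Probe coordinates are in mm9, gene names and promoters from RefSeq GRCm38.p6, used apart. Of 56605 probes, 32932 were named through an accession and 520 through an older symbol.

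The members and lists were chosen with earlier results of these data known. Members past 2-fold in any comparison, the 3 sensors, Xbp1, Atf4 and Hspa5 are given on every array, and of each other list up to 4 genes with the largest difference. The additive fit used limma 3.58.1 in R 4.3.3 (lmFit, eBayes; genes above background on at least 2 arrays), and other steps Python 3.11.15 with numpy 2.4.6, pandas 2.3.3 and matplotlib 3.10.9. Nothing says that the arrays hold separate cultures beyond the labels, and no group has a replicate. The p-values set each effect against the departure of the 4 arrays from additive terms, and not against the spread between cultures. The number of arrays limits the precision. Call rule and fit were also run on simulated data. The noise there was that of replicate spots for the call rule and that of the fit's prior for the fit. Neither held the spread between cultures, and the LPS effects simulated for the fit were equal in both genotypes.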

Additional observations from a re-analysis of the deposited data

Results flagged for a closer look

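In 3 members the LPS responses of the genotypes had opposite signs, each larger than the technical SD of its comparison (0.129 in knockout and 0.0760 in wild type). Atf6 differed by 0.61 in knockout and by -0.31 in wild type. Shmt2 differed by 0.53 in knockout and by -0.11 in wild type, while a second probe of Shmt2 gave -0.38 in knockout and 0.70 in wild type. Sdf2l1 differed by 0.196 in knockout and by -0.0925 in wild type. None of the 3 reached 2-fold in either genotype. With 1 array per group the difference between the genotypes was not tested.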

How the results depend on the processing

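Counts of members past 2-fold changed by more than 1.5 times mainly with the threshold. At 1.5-fold, 21 members were higher and 1 lower with LPS in wild type, 1 was lower with LPS in knockout, 2 were higher and 1 lower in untreated knockout against wild type, 16 were higher in LPS-treated knockout against wild type, and 10 had a larger response in knockout. At 4-fold, 7 were higher with LPS in knockout and 5 in wild type, and 0 were higher in the 2 genotype comparisons and in the difference of the responses. In the series table, and with outlier spots kept, 1 member (Pdia6) was lower with LPS in knockout and 1 lower in LPS-treated knockout against wild type, and with outlier spots kept 1 was lower in the difference of the responses, all through the spot left out of the main values. For LPS in the additive fit 31 members passed with a trended prior, 27 with normexp background correction, 26 with the stricter filter and 13 each with quantile normalization, spike-in centring and the series table. For genotype 0 members passed under each of these settings. Over all genes 18 rose and 54 fell for genotype with a trended prior, and 3 rose and 23 fell with normexp, against 0 in the main fit. With quantile normalization, spike-in centring or the authors' values 18 members were higher with LPS in knockout and 10 in wild type. In LPS-treated knockout against wild type 3 members were higher with quantile normalization and in the series table (without Chac1) and with the mean of a gene's probes (without Ddit3). The difference of the responses reached 2-fold in 4 members with quantile normalization, normexp and the series table (without Trib3), and in 6 with the mean of a gene's probes, where Ddit3 was lost and Atf6 and Aars were added, their further probes being above background on 1 or 2 arrays. With the mean of probes Syvn1 was no longer higher with LPS in either genotype, its second probe being mapped to the opposite strand. Spike-in centring moved the median of all genes to -0.20 in the knockout response and -0.18 in the wild-type response, against 0.037 and 0.036. No called difference of a member changed sign in the settings run. With the 75th percentile over probe means Ppp1r15a passed 2-fold too, which made 5 members higher in LPS-treated knockout against wild type; this setting and the kept outlier spots were chosen after seeing the data. No paired analysis was possible because the labels give no replicate numbers and each group has 1 array.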
